A study of Homo sapiens with 9 samples.

Results

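The vascular endothelial growth factor (VEGF) genes of A498 cells were examined together with the receptors and co-receptors of their products and with the angiopoietin-like gene ANGPTL4. The genes were chosen by name as VEGFA, VEGFB, VEGFC, PGF, FLT1, KDR, NRP1, NRP2 and ANGPTL4, and all 9 were found among the 27671 genes of the count table. A498 is an established human line of clear cell renal cell carcinoma (ccRCC). The cells carried a lentiviral short hairpin RNA that was a control (shControl, genotype labelled WT), that depleted BMAL1 (shBMAL1, labelled BMAL1 knockdown) or that depleted ARNT (shARNT, labelled ARNT knockdown), with 3 biological replicates per group. All 3 groups had been selected and kept in puromycin and grown in the same medium, and no clone, further treatment or time point was named. The question behind the design was whether transcripts that depend on HIF2α need ARNT, BMAL1 or both.

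VEGF ligands are secreted proteins that drive the growth of blood and lymphatic vessels. VEGF-A acts on endothelial cells mainly through the receptor tyrosine kinase KDR, also called VEGFR2, while FLT1 (VEGFR1) binds VEGF-A, VEGF-B and placental growth factor. VEGF-C, after proteolytic processing, acts through FLT4 (VEGFR3) on lymphatic endothelium. The neuropilins NRP1 and NRP2 have no kinase activity of their own. They are co-receptors for VEGF ligands and for class 3 semaphorins, and tumour cells often carry them. ANGPTL4 is a secreted inhibitor of lipoprotein lipase and, like VEGFA, a well-known target of hypoxia-inducible factors (HIFs). In ccRCC, loss of the VHL protein stabilises HIFα subunits, which bind DNA together with ARNT, and a high output of VEGF-A is a hallmark of this tumour.

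HIF dimers bind a short core with the letters ACGTG or GCGTG, and BMAL1 dimers bind the E-box CACGTG. For this reason the 250 bases before the start site are shown for the 4 tested genes with an entry in the RefSeq promoter table (GRCh38.p14), which were ANGPTL4 (chr19:8363905-8364154, plus strand), VEGFC (chr4:176792923-176793172, minus strand), VEGFB (chr11:64234334-64234583, plus strand) and NRP2 (chr2:205682251-205682500, plus strand). Entries were found for 7 of the 9 genes, without VEGFA and NRP1. Each sequence is written 5′ to 3′ along the strand of the gene and ends at the base before the start site. Capitals mark the HIF cores, which were searched on both strands. A core on the other strand therefore reads as its complement.
ANGPTL4: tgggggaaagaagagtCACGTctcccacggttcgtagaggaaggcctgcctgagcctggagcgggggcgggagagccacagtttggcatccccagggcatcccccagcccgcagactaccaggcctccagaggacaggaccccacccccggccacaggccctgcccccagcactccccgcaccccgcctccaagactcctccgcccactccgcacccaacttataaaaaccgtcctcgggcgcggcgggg
VEGFC: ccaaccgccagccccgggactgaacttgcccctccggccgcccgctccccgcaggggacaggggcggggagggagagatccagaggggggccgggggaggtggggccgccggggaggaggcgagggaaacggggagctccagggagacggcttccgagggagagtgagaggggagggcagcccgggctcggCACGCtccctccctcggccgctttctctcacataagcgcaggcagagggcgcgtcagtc
VEGFB: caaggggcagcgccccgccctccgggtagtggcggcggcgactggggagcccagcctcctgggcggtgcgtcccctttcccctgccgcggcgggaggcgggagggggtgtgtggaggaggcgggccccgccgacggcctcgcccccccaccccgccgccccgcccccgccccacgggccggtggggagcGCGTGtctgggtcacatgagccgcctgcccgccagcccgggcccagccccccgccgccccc
NRP2: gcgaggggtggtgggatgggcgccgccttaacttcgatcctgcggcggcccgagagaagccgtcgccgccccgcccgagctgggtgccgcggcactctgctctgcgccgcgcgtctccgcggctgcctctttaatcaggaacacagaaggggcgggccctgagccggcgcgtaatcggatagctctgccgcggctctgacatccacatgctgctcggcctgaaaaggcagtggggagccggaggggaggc

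ANGPTL4 held 1 ACGTG on the complementary strand at bases -234 to -230 from the start site. VEGFC held 1 GCGTG on the complementary strand at -59 to -55, VEGFB held 1 GCGTG at -61 to -57, and the NRP2 window held neither core. None of the windows of the 7 genes held the letters CACGTG, which contain ACGTG on both strands, so every E-box is also counted as an ACGTG core. Of 35116 promoter windows of the same length in the table, 18.5% held ACGTG, 32.2% held GCGTG, 43.2% held at least 1 of these cores and 6.34% held CACGTG. Among the 15681 windows of tested genes, 53.7% held at least 1 core. A match of these letters is a description of the window and not a binding site.

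Library totals were even, from 35269851 to 36099075 counts. Scaling factors by trimmed means of M values (TMM) ranged from 0.932 to 0.944 for shControl, from 0.961 to 0.971 for shBMAL1 and from 1.10 to 1.11 for shARNT. The unit of levels is CPM, which divides counts by the scaled library size, and 3 counts corresponded to between 0.0756 and 0.0911 CPM, which was taken as the floor for counting error. ARNT was at 18.8% of the shControl level in shARNT, and BMAL1, listed as ARNTL, was at 30.9% in shBMAL1. All 9 renal epithelial or ccRCC markers examined passed the filter on low counts, including CA12, CA9 and CDH6. EPCAM passed with only 2 to 17 counts per library. Their summed level was 3220 to 3260 CPM for shControl, 3140 to 3280 for shBMAL1 and 1450 to 1540 for shARNT. CA12 alone was at 1190 ± 22.3 CPM in shControl and 132 ± 0.924 in shARNT. In shARNT 7 of the 9 were called lower, beside 41.3% of all tested genes. PAX8 was higher there, at 100 ± 5.65 against 36.0 ± 1.92 CPM in shControl, and KRT18 was not called. The part of these changes in the results below was not tested. Of 10 endothelial markers, 8 did not pass. CDH5, CLDN5 and SOX18 had at most 3 counts in any library, PECAM1 and EMCN at most 4, and VWF, ROBO4 and ERG at most 10. ESAM passed the filter with 7 to 31 counts and was not called against shControl in either depletion, and the summed endothelial level of 103 to 107 CPM (shControl), 71.3 to 79.4 CPM (shBMAL1) and 57.1 to 62.0 CPM (shARNT) was almost wholly EGFL7, whose levels were 105 ± 1.80, 74.0 ± 3.83 and 58.7 ± 2.61 CPM.

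The ligand VEGFA and the secreted factor ANGPTL4 fell to 6.81% and 9.33% of the shControl level in shARNT, whereas in shBMAL1 VEGFA fell modestly and ANGPTL4 rose. VEGFC, NRP1 and NRP2 rose in shBMAL1, to at least 207% of the shControl level, and VEGFC and NRP1 fell in shARNT. VEGFB fell in shARNT to 67.1% and was not called in shBMAL1. The signalling receptors KDR and FLT1 and the ligand PGF were at or near the floor in all groups. Of the 9 genes, 6 passed the filter on low counts. They were VEGFA, VEGFB, VEGFC, NRP1, NRP2 and ANGPTL4, and 15551 genes were tested in all.

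**Figure D1:**
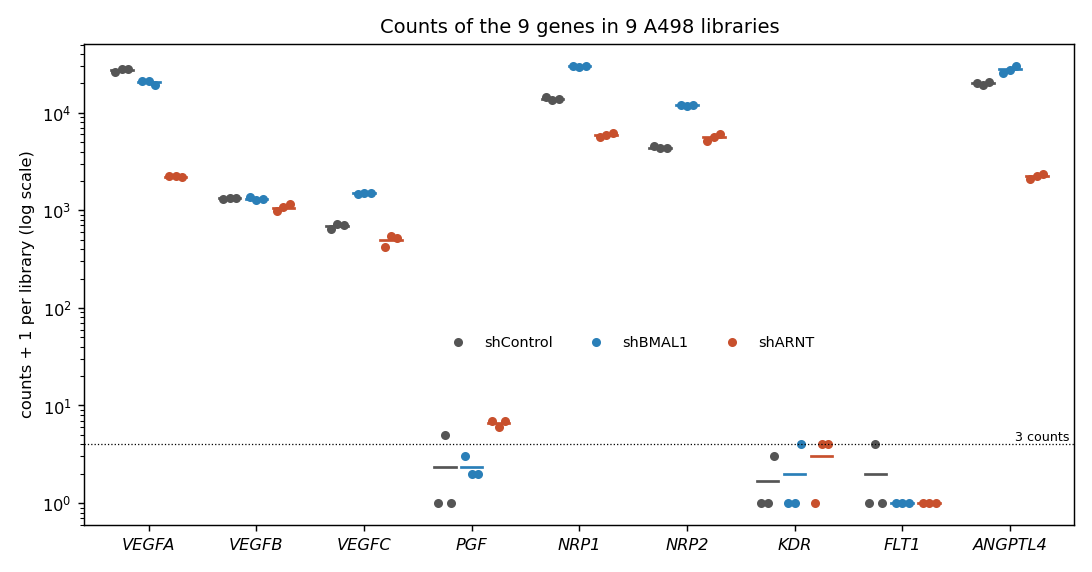
Counts plus 1 of the 9 genes in each library on a log axis, with 1 point per library, coloured by group, and a bar at the group mean. The dotted line marks 3 counts. VEGFA and ANGPTL4 sit about an order of magnitude lower in shARNT than in the other groups, while all KDR and FLT1 points lie at or below the line.

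Genes were called at an adjusted p under 0.1 (quasi-likelihood F-test of edgeR, p adjusted by the Benjamini-Hochberg method over the 15551 genes, as for every adjusted p below). In shARNT against shControl 6 of the 6 tested genes were called, 5 lower and 1 higher. Of all tested genes 81.8% were called in this comparison, 40.5% as higher and 41.3% as lower. For shBMAL1 and shControl the call was reached by 5 of 6, with 4 up and 1 down, against 63.4% of all tested genes, 31.9% higher and 31.5% lower. In shARNT against shBMAL1, which used no control library in its contrast, 6 of 6 were called lower, against 81.2% of all tested genes, 40.1% higher and 41.1% lower. With so many genes called, a call by itself set these genes little apart from the background, so sizes are given. The median absolute log2 fold change of the 6 genes was 1.12 in shARNT and 0.75 in shBMAL1, beside 0.66 and 0.32 over all tested genes, and in the direct comparison it was 2.17 beside 0.64. Both depletions were compared with the same shControl libraries. With library size alone in place of TMM, the median log2 fold change of all tested genes moved from -0.01 to 0.23 in shARNT and from 0 to 0.05 in shBMAL1. The share of calls that were higher then moved from 49.6% to 60.5% in shARNT and from 50.3% to 55.8% in shBMAL1, and in the direct comparison from 49.4% to 58.6%.

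VEGFA (chromosome 6, 43737921 to 43754224, plus strand, GRCh37, as for the other gene positions) encodes the principal angiogenic ligand. It had 25982, 27886 and 27795 counts in shControl, 21073, 21243 and 19307 in shBMAL1 and 2223, 2243 and 2192 in shARNT. The groups did not overlap, and the shARNT libraries were the most alike. The mean level was 823 ± 36.9 CPM (SD, n = 3, as for every level below) in shControl, which placed VEGFA at rank 157 of the tested genes, 600 ± 28.2 in shBMAL1 and 56.0 ± 0.741 in shARNT. The last value was 6.81% of shControl and gave log2 fold change -3.88 (SE 0.0467, adjusted p = 4.59e-23), larger in size than that of 98.6% of tested genes. In shBMAL1 72.9% of the shControl level was left (log2 fold change -0.46, SE 0.0407, adjusted p = 8.77e-09). In the direct comparison shARNT was lower than shBMAL1, with a log2 difference of -3.42 (adjusted p = 2.04e-22).

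VEGFB (chromosome 11, 64002056 to 64006736, plus strand) encodes a ligand of FLT1 that is linked to fatty acid uptake and cell survival more than to vessel growth. Its counts were 1309, 1334 and 1344 in shControl, 1374, 1261 and 1307 in shBMAL1 and 987, 1070 and 1148 in shARNT. After scaling, the shControl and shBMAL1 libraries overlapped and all shARNT libraries lay below them. Levels were 40.2 ± 0.746, 38.4 ± 1.79 and 27.0 ± 2.00 CPM in shControl, shBMAL1 and shARNT. The fall in shARNT amounted to -0.58 on the log2 scale (SE 0.0623, adjusted p = 4.71e-08), smaller than the median size over all tested genes. With library size alone it was -0.34 (adjusted p = 4.54e-05), where the median log2 fold change of all tested genes was 0.23. In shBMAL1 no difference was called, with a log2 fold change of -0.06 (95% interval -0.19 to 0.06, adjusted p = 0.384).

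VEGFC (chromosome 4, 177604689 to 177714076, minus strand) encodes the main lymphangiogenic ligand. It was counted 637, 716 and 715 times in shControl, 1477, 1497 and 1496 times in shBMAL1 and 422, 544 and 517 times in shARNT. The groups were fully separate, with shBMAL1 highest and shARNT lowest. The level of 20.8 ± 1.48 CPM in shControl became 43.5 ± 0.401 in shBMAL1, or 209% (log2 fold change 1.06, SE 0.0779, adjusted p = 4.48e-10). In shARNT it was 12.5 ± 1.62 CPM, or 59.9% (log2 fold change -0.74, SE 0.0838, adjusted p = 9.2e-08). With library size alone the log2 fold change in shARNT was -0.50 (adjusted p = 1.29e-05). VEGFA and VEGFC thus moved in opposite directions in shBMAL1 and in the same direction in shARNT.

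PGF (chromosome 14, 75408537 to 75422329, minus strand), which encodes placental growth factor, had 0, 4 and 0 counts in shControl, 2, 1 and 1 in shBMAL1 and 6, 5 and 6 in shARNT. These counts did not pass the filter. In a fit without the filter its log2 fold change in shARNT was 1.74 with an adjusted p of 0.18. VEGFD, listed under its older symbol FIGF, had 0 counts in every library, which allows up to 3 counts, or 0.0911 CPM.

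Placed on a scale per length of the canonical transcript, so that different genes can be compared, the ligand pool changed in make-up as well as in size. VEGFA held 87.7%, 88.0% and 87.9% of the summed level of VEGFA, VEGFB, VEGFC and PGF in the shControl libraries, 80.5%, 81.2% and 79.4% in shBMAL1 and 45.5%, 42.6% and 41.2% in shARNT. The groups did not overlap, and the mean shares were 87.9% ± 0.117, 80.4% ± 0.904 and 43.1% ± 2.22. The difference from shControl was -44.7 percentage points in shARNT and -7.48 in shBMAL1, and the depletions differed by -37.3 points. An exact two-sided permutation test gave p = 0.1 for each of the 3 differences, the smallest that 3 against 3 libraries allow. VEGFB held 8.58% ± 0.225 of the ligand level in shControl, 10.3% ± 0.581 in shBMAL1 and 41.4% ± 1.49 in shARNT, so that in shARNT the VEGFA to VEGFB ratio was 1.04 ± 0.0859, against 10.2 ± 0.278 in shControl. The near equality in shARNT depended on the division by length. In counts without length, VEGFA held 58.6% ± 2.23 and VEGFB 28.2% ± 1.36 there. VEGFC held 3.55% ± 0.10, 9.32% ± 0.439 and 15.3% ± 1.37. The rise of the VEGFB and VEGFC shares in shARNT went with a fall in the levels of both genes.

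**Figure D2:**
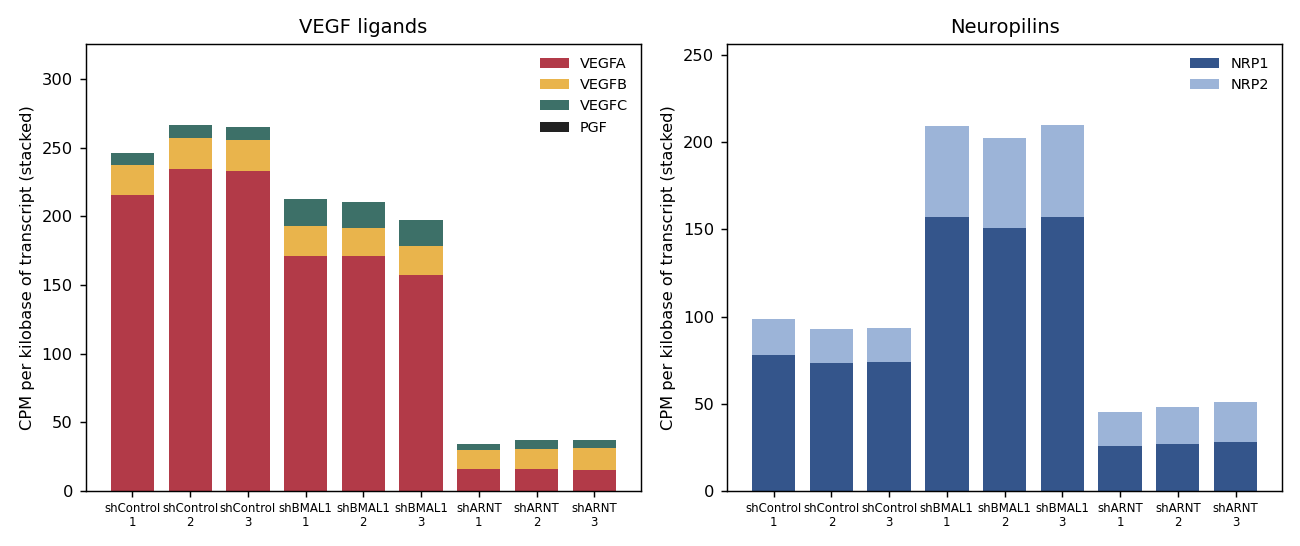
Stacked levels, in CPM per kilobase of canonical transcript, of the VEGF ligands on the left and of the neuropilins on the right in each of the 9 libraries. VEGFA makes up 87.9% of the ligand level in shControl and 43.1% in shARNT, and both neuropilins are highest in shBMAL1. PGF is too low to be seen.

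The receptor tyrosine kinases of the family were hardly detected. KDR (chromosome 4, 55944648 to 55991762, minus strand) had 0, 0 and 2 counts in shControl, 0, 0 and 3 in shBMAL1 and 0, 3 and 3 in shARNT. FLT1 (chromosome 13, 28874483 to 29069282, minus strand) had 3 counts in shControl replicate 2 and 0 in the 8 other libraries, which allows up to 3 counts in each of them. A difference between groups was not detectable at this depth for either gene, and without the filter neither was called in any comparison. FLT4, the VEGF-C receptor, which is not among the 9 genes, had 5, 10 and 24 counts in shControl, 3, 0 and 7 in shBMAL1 and 2, 3 and 4 in shARNT. Its shControl counts came mostly from replicate 3, and it did not pass the filter. Without the filter it was called lower in both depletions, with adjusted p = 0.0046 for shARNT and 0.0223 for shBMAL1.

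NRP1 (chromosome 10, 33466420 to 33625190, minus strand), the co-receptor of VEGF-A and semaphorin 3A, had 14653, 13580 and 13719 counts in shControl. It had 30202, 29375 and 30028 in shBMAL1 and 5681, 5902 and 6246 in shARNT. The groups were far apart and each was tight. Levels were 423 ± 15.2, 873 ± 17.6 and 150 ± 7.01 CPM, so that shBMAL1 stood at 207% and shARNT at 35.5% of shControl. The log2 fold changes were 1.05 (SE 0.0398, adjusted p = 2.06e-14) in shBMAL1 and -1.49 (SE 0.0409, adjusted p = 1.14e-17) in shARNT. Directly compared, shARNT was below shBMAL1 by a log2 difference of -2.54 (adjusted p = 4.15e-21).

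NRP2 (chromosome 2, 206546714 to 206662857, plus strand), which binds VEGF-C and semaphorin 3F, had 4526, 4319 and 4333 counts in shControl. It had 11968, 11766 and 12040 in shBMAL1 and 5136, 5615 and 6044 in shARNT. The level rose from 133 ± 2.75 CPM in shControl to 349 ± 6.36 in shBMAL1, or 263% (log2 fold change 1.39, SE 0.0481, adjusted p = 4.85e-15), the largest rise among the 6 genes. In shARNT the scaled values were 130, 142 and 152 CPM against 136, 131 and 131 in shControl, and the groups overlapped. The log2 fold change of 0.09 (SE 0.0481, 95% interval -0.01 to 0.19) had an adjusted p of 0.0945, and this call was lost in several other settings. With library size alone it was 0.33 (adjusted p = 2.57e-06), where the median of all tested genes was 0.23.

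In shARNT NRP1 fell and the NRP2 value was 0.09 on the log2 scale, so their levels came closer together. On the scale per transcript length, NRP1 held 79.2%, 78.7% and 78.9% of the summed neuropilin level in shControl, 74.8%, 74.6% and 74.6% in shBMAL1 and 56.6%, 55.3% and 54.9% in shARNT. No group overlapped another, and the mean ratio of NRP1 to NRP2 was 3.75 ± 0.0575, 2.95 ± 0.0193 and 1.25 ± 0.0447. The differences from shControl were -23.3 percentage points in shARNT and -4.25 in shBMAL1, each with p = 0.1 in the exact two-sided permutation test, the smallest possible. This comparison was added after the values of the neuropilins had been seen.

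ANGPTL4 (chromosome 19, 8428173 to 8439254, plus strand) had 20139, 19377 and 20577 counts in shControl, 25325, 27749 and 30272 in shBMAL1 and 2114, 2250 and 2348 in shARNT. All shBMAL1 libraries lay above and all shARNT libraries below the shControl range, and the spread was widest in shBMAL1. Levels were 605 ± 17.2, 812 ± 74.9 and 56.5 ± 2.92 CPM. In shARNT 9.33% of the shControl level was left (log2 fold change -3.42, SE 0.0584, adjusted p = 7.54e-21), and in shBMAL1 the level was 134% (log2 fold change 0.42, SE 0.0517, adjusted p = 6.85e-07). The difference between the depletions, -3.85 on the log2 scale (adjusted p = 1.51e-21), was the largest of the 6 genes in that comparison. The ratio of VEGFA to ANGPTL4 per transcript length was 0.705 ± 0.0389 in shControl, 0.387 ± 0.0512 in shBMAL1 and 0.516 ± 0.0306 in shARNT.

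**Figure D3:**
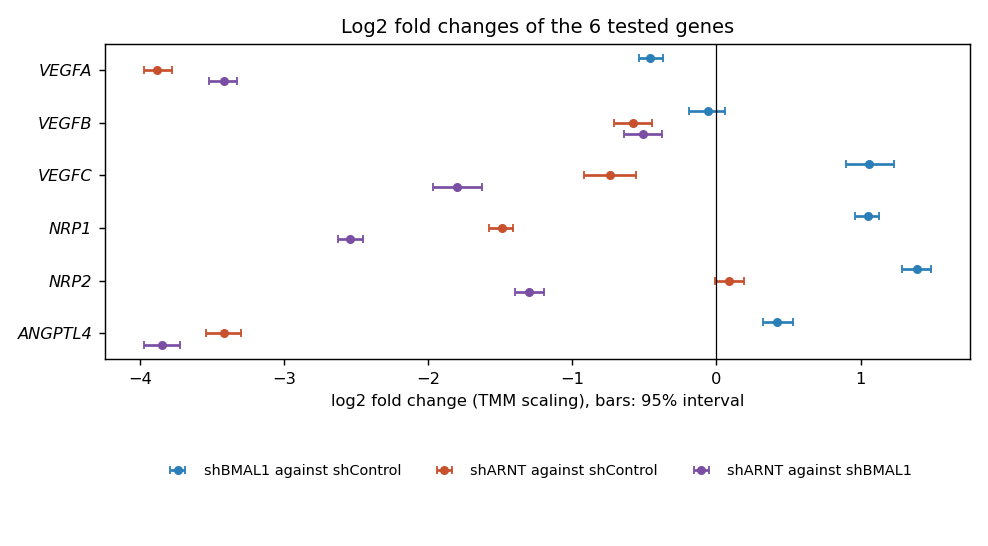
Log2 fold changes of the 6 tested genes in the 3 comparisons, with bars for the 95% interval, on the TMM scale. VEGFA (-3.88) and ANGPTL4 (-3.42) lie farthest to the left in shARNT against shControl, VEGFC, NRP1, NRP2 and ANGPTL4 lie to the right of 0 in shBMAL1, and the NRP2 interval in shARNT includes 0.

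The order of levels per kilobase of transcript also differed between groups. In shControl it was ANGPTL4 (323 ± 9.17 CPM per kilobase), VEGFA (228 ± 10.2), NRP1 (74.9 ± 2.70), VEGFB (22.3 ± 0.413), NRP2 (20.0 ± 0.415) and VEGFC (9.21 ± 0.654). In shBMAL1 VEGFA at 166 ± 7.81 and NRP1 at 155 ± 3.11 were neighbours whose lowest and highest libraries met at 157, and NRP2 at 52.5 ± 0.958 stood above VEGFB at 21.3 ± 0.992. In shARNT the neuropilins NRP1 (26.6 ± 1.24) and NRP2 (21.3 ± 1.70) stood above VEGFA (15.5 ± 0.205), which was not separated from VEGFB (14.9 ± 1.11) beyond the spread. The place of the neuropilins depended on the length used. Over the merged exon length of each gene, the order in shControl was the same, but in shARNT NRP1 (13.0 ± 0.608) and NRP2 (13.7 ± 1.10) no longer stood above VEGFA (14.9 ± 0.197) and VEGFB (14.1 ± 1.05). In shBMAL1 NRP1 was then at 75.8 ± 1.52, well below VEGFA at 159 ± 7.48.

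HIF subunits were also changed at the RNA level, and not in 1 direction. EPAS1, which encodes HIF2α, was at 345 ± 18.6 CPM in shControl, 233 ± 18.8 in shBMAL1 and 74.2 ± 3.41 in shARNT. ARNT itself was at 50.5 ± 2.24, 32.3 ± 1.52 and 9.46 ± 0.433 CPM, so it was also lower in shBMAL1 (log2 fold change -0.65, adjusted p = 1.55e-08). HIF1A was higher in both depletions, at 140 ± 6.79, 421 ± 13.8 and 390 ± 17.2 CPM. The part of these changes in the VEGF family values was not tested. In bulk libraries such as these, fewer cells that express a gene and less of its RNA per cell cannot be told apart.

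For each tested gene, the 3 genes with the closest profile over the 9 libraries were found by the Euclidean distance between centred log2 CPM values. VEGFA lay closest to MATN2 (distance 0.27), FAM13A-AS1 (0.29) and CMC4 (0.32), where the median distance to all tested genes was 5.26, and ANGPTL4 lay closest to COL5A1 (0.21), LOC101448202 (0.29) and EGLN3 (0.33). The distance between VEGFA and ANGPTL4 themselves was 1.12. NRP1 lay closest to SERPINE2 (0.26), VCAM1 (0.29) and HEXA (0.30), and NRP2 to BPGM (0.30), CADPS2 (0.33) and VASN (0.34). VEGFC was most like ERAP1 (0.26), LEPR (0.30) and ADIPOR1 (0.31), and VEGFB most like CPNE3 (0.13), SLC39A13 (0.14) and YIPF5 (0.16). Median distances to all tested genes were 5.23 for ANGPTL4, 3.27 for NRP1, 2.29 for NRP2, 2.5 for VEGFC and 1.46 for VEGFB. The distances of different genes are therefore not on 1 scale. No other member of the family was among the 3 closest genes of any of the 6.

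Genes for the maturation of VEGF ligands all passed the filter. They encode proprotein convertases, proteases, the VEGF-C processing cofactor CCBE1 and the enzymes of heparan sulfate, to which VEGF-A binds. As for the lists that follow, their counts and medians stand beside the 81.8% and 63.4% of all tested genes called in shARNT and shBMAL1 and medians over all tested genes of -0.01 and 0. Of 11 tested, 8 were lower and 3 higher in shARNT (median log2 fold change -0.67), and 5 were higher, 4 lower and 2 not called in shBMAL1 (median 0.17). The convertase gene PCSK6 fell from 858 ± 44.3 CPM to 65.8 ± 1.89 in shARNT (log2 fold change -3.70, adjusted p = 4.59e-23) and was at 556 ± 12.4 in shBMAL1. PCSK5, another convertase, rose in shBMAL1 from 296 ± 9.37 to 494 ± 10.2 CPM and fell to 96.1 ± 3.65 in shARNT (adjusted p = 2.7e-12 and 2.61e-18). Heparanase, HPSE, which releases growth factors from the matrix, fell from 18.1 ± 0.472 to 2.38 ± 0.160 CPM in shARNT, and the heparan sulfate polymerase gene EXT2 had a log2 fold change of -0.53 there (adjusted p = 2.97e-16 and 1.95e-10).

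Class 3 semaphorins and plexins share the neuropilins with the VEGF ligands. Of 12 genes, 9 were tested, of which 6 were lower, 2 higher and 1 not called in shARNT (median -1.41), and 4 were higher, 2 lower and 3 not called in shBMAL1 (median 0.02). PLXND1 fell from 1150 ± 20.6 to 352 ± 11.3 CPM in shARNT (log2 fold change -1.70, adjusted p = 1.34e-19) and was at 1140 ± 17.6 in shBMAL1, where it was not called. PLXNA3 fell to 110 ± 2.01 CPM in shARNT and to 222 ± 3.30 in shBMAL1 from 310 ± 6.64 in shControl (adjusted p = 2.86e-18 and 7.09e-10). The related PLXNA1 was higher in both, with log2 fold changes of 1.07 and 0.85 (adjusted p = 1.1e-13 and 2.74e-11). PLXNA4 had opposite signs, with log2 fold changes of -3.17 in shARNT and 0.87 in shBMAL1 (adjusted p = 2.79e-12 and 1.66e-05).

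Angiopoietins, their TIE receptors and the other angiopoietin-like genes were low. Only 4 of 12 passed the filter, TEK, ANGPTL5, ANGPT1 and ANGPTL6, and their summed level with the untested members was 10.5 to 12.4 CPM in shControl, far below ANGPTL4. All 4 were lower in shARNT (median -1.53), but with library size alone the calls of ANGPT1 (log2 fold change -0.53, adjusted p = 0.114) and ANGPTL6 (-0.15, adjusted p = 0.301) were lost. The ANGPT1 call was also lost without shControl replicate 2 (-0.63, adjusted p = 0.106) or shARNT replicate 1 (-0.59, adjusted p = 0.112). The largest of these falls, in ANGPTL5, was -2.54 on the log2 scale at a level of 1.29 ± 0.369 CPM in shControl, and that of TEK, the angiopoietin receptor, was -2.29 (adjusted p = 4.38e-06 and 8.97e-09). In shBMAL1 ANGPT1 was higher, ANGPTL5 and ANGPTL6 were lower and TEK was not called.

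Lipoprotein lipase, the main enzyme that ANGPTL4 inhibits, was not detected. LPL, LIPG and PNLIP had 0 counts in every library, which allows up to 3 counts in each, and GPIHBP1, the endothelial anchor of lipoprotein lipase, did not pass the filter. The 3 tested genes of this list were lower in shARNT (median -1.43). LIPC, hepatic lipase, was at 15.7 ± 0.0188 CPM in shControl, 25.3 ± 0.517 in shBMAL1 and 4.11 ± 0.501 in shARNT, with adjusted p = 3.41e-07 and 9.77e-14 for the depletions. LMF1, a maturation factor of lipases, had log2 fold changes of 0.28 (shBMAL1, adjusted p = 4.97e-04) and -1.43 (shARNT, adjusted p = 5.36e-14), the same directions as ANGPTL4. SEL1L, of the degradation machinery of the endoplasmic reticulum, had a log2 fold change of -0.51 in shARNT (adjusted p = 1.85e-08) and was not called in shBMAL1.

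PPAR nuclear receptors also drive ANGPTL4. Of 13 PPAR factors and targets, 10 were tested, with 7 lower, 2 higher and 1 not called in shARNT (median -0.32) and 5 higher, 4 lower and 1 not called in shBMAL1 (median 0.06). PPARD, the receptor PPARδ, rose in shBMAL1 from 19.4 ± 0.569 to 34.8 ± 1.48 CPM and fell to 7.32 ± 0.163 in shARNT (adjusted p = 1.14e-09 and 4.81e-13). PLIN2, a lipid droplet coat protein, fell in shARNT from 1270 ± 66.4 to 329 ± 14.8 CPM (adjusted p = 5.03e-19) and was not called in shBMAL1. PDK4 and CPT1A, which limit glucose oxidation and admit fatty acids to mitochondria, rose in shARNT by log2 fold changes of 2.89 and 0.90 (adjusted p = 2.45e-13 and 1.14e-12). The list thus held genes that moved with ANGPTL4 and genes that moved against it.

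The list of other secreted angiogenic factors, which also held the membrane-bound ephrins EFNA1 and EFNB2, showed no common direction. Of 13 genes, 11 were tested, with 6 higher, 3 lower and 2 not called in shARNT and 4 higher, 4 lower and 3 not called in shBMAL1. EFNB2 was counted as higher in both depletions, and EFNA1 was called in neither. ANG, angiogenin, fell in shARNT from 16.6 ± 0.678 to 0.984 ± 0.131 CPM (log2 fold change -4.07, adjusted p = 4.77e-17), beside -3.88 for VEGFA. FGF2, basic fibroblast growth factor, rose from 13.8 ± 1.03 to 40.9 ± 1.23 CPM in shARNT and to 23.7 ± 1.35 in shBMAL1 (adjusted p = 2.95e-14 and 1.37e-08). PDGFA rose in shARNT (log2 fold change 1.15, adjusted p = 3.41e-12), while PDGFC fell there by 1.08 and rose in shBMAL1 by 0.73 (adjusted p = 5.33e-13 and 4.79e-10).

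The list of secreted inhibitors of angiogenesis also held VASH2, a relative of VASH1 that is not itself an established inhibitor. Of the 6 tested, 5 were lower in shBMAL1, VASH2 among them, and 1 was higher (median -1.07). In shARNT 3 were lower, 2 higher and 1 not called (median -0.76). THBS1, thrombospondin 1, fell from 629 ± 21.6 CPM to 151 ± 2.31 in shBMAL1 and 71.9 ± 7.36 in shARNT, with log2 fold changes of -2.06 and -3.13 (adjusted p = 8.34e-17 and 1.68e-20). COL18A1, the source of endostatin, fell from 954 ± 15.2 to 475 ± 26.0 and 436 ± 6.56 CPM (adjusted p = 2.46e-14 and 4.71e-16). COL4A3, the source of tumstatin, fell in both from 3.14 ± 0.571 CPM, and VASH1, vasohibin 1, had log2 fold changes of -2.14 in shBMAL1 and 1.32 in shARNT from a level of 0.958 ± 0.127 CPM. Adjusted p in shBMAL1 and shARNT was 0.00275 and 8.71e-09 for COL4A3 and 7.74e-05 and 1.78e-04 for VASH1. Counts were low, with 10, 2 and 10 for VASH1 in shBMAL1 and 4, 20 and 7 for COL4A3 in shARNT.

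**Figure D4:**
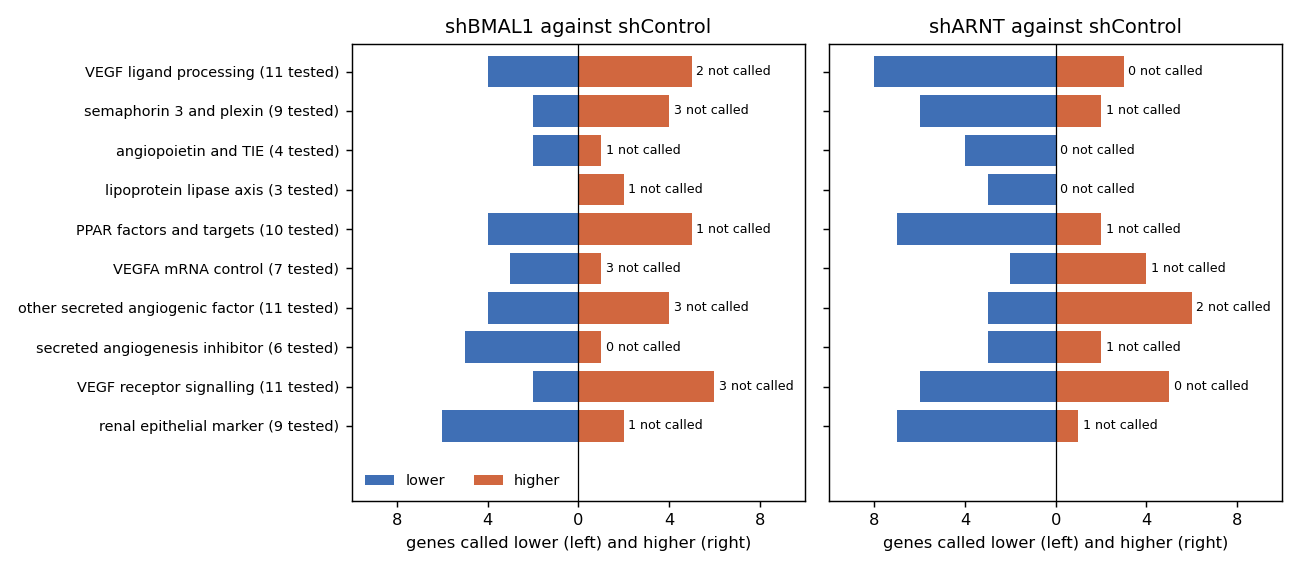
Number of tested genes called lower (left) and higher (right) in each related list, with shBMAL1 against shControl in the left panel and shARNT against shControl in the right panel, beside the number not called. In shARNT 8 of 11 ligand processing genes and all 4 angiopoietin and TIE genes are lower. In shBMAL1 5 of 6 genes in the list of secreted angiogenesis inhibitors are lower, VASH2 among them.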

How the data were processed

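RNA of 9 A498 libraries (shControl, shBMAL1 and shARNT, n = 3 each) had been prepared as stranded mRNA libraries. The deposited values were expected counts, total reads per gene without normalization. Per the study's methods the authors aligned reads to GRCh37 with SeqMan NGen and exported counts with ArrayStar, whereas the submitters' processing notes name hg38, STAR and DESeq2. This difference could not be settled from the table. Use of strand and handling of reads with several alignments were not given in the sources used here. VEGFA, VEGFC, NRP1, NRP2 and KDR overlap annotated noncoding genes that the table does not list, so reads from those could be included. The overlaps were sought over whole gene bodies. All lie on the opposite strand, apart from RN7SL398P, which shares the strand of NRP1.

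The table had 27716 rows, of which 45 names were held by several rows and summed to give 27671 genes. A value of 0.05 stood for no reads and was set to 0, and expected counts were rounded. All 9 genes had 1 row and whole values. Replicates differed beyond sampling noise, so none were merged. The quasi-likelihood test of edgeR 4.0.16 (R 4.3.3) was fitted to all 9 libraries with TMM scaling and filterByExpr, which left 15551 genes (common dispersion 0.00311). Calls in the 3 contrasts required p under 0.1 after Benjamini-Hochberg adjustment over these genes. The computations were tested on simulated data in which few genes changed, evenly up and down. That simulation could not test the scaling where most genes change, as in these data. Depth was 35269851 to 36099075 counts per library, and the floor of 3 counts covers counting error only. Shares of single values were compared by exact permutation tests.

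The 9 genes and the related lists were chosen with earlier results of these data known. All 9 genes are named. From each list at most 4 genes are named, those with the smallest p among genes called in shARNT against shControl. The other endothelial markers and the untested genes of the lipoprotein lipase list are named outside this rule, after their values were seen. So are PAX8, KRT18, EPCAM, VASH2, EFNA1, EFNB2 and CCBE1. The 3 genes most like each tested gene were taken by distance. FLT4, VEGFD, EPAS1, HIF1A and the targeted genes are named for context. A further gene that this rule names is not reported here. Gene positions and lengths came from GENCODE release 44 lifted to GRCh37, and promoter sequences came from RefSeq (GRCh38.p14). Alternatives were DESeq2 1.42.0, its size factors, library size alone, no filter or at least 50 counts in 3 libraries, only the 6 libraries compared, a replicate block, leaving out each library, a threshold of 0.05, and other lengths for the shares.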

Additional observations from a re-analysis of the deposited data

Results flagged for a closer look

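Each of the 6 tested genes differed between shARNT and shBMAL1 in the direct contrast (quasi-likelihood F-test of edgeR, p adjusted by the Benjamini-Hochberg method). The labels name no second hairpin per target, so effects of a hairpin beyond its target cannot be told apart from depletion. The extent of depletion also differed, with 18.8% of ARNT left in shARNT and 30.9% of BMAL1 left in shBMAL1. On the log2 scale the differences were -3.42 for VEGFA (adjusted p = 2.04e-22), -0.51 for VEGFB (adjusted p = 2.75e-07), -1.80 for VEGFC (adjusted p = 3.38e-14), -3.85 for ANGPTL4 (adjusted p = 1.51e-21), -2.54 for NRP1 (adjusted p = 4.15e-21) and -1.30 for NRP2 (adjusted p = 1.36e-15). All 6 genes were called lower, beside 41.1% of all tested genes called lower and 81.2% called in either direction. VEGFC, NRP1 and ANGPTL4 had opposite signs against shControl in the 2 depletions.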

How the results depend on the processing

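Each of the 18 gene comparisons was recomputed under 17 alternatives. Of the 306 values, 296 kept their direction and their side of the threshold and 0 reversed. The 10 that changed were all NRP2 in shARNT against shControl, which had a log2 fold change of 0.07 with at least 50 counts in 3 libraries, 0.08 with only the 6 libraries compared and 0.09 at an adjusted p under 0.05, none of them called. Leaving out 1 library at a time gave 0.03 to 0.15, and the call was lost without shControl replicate 2 or 3, any shBMAL1 replicate, or shARNT replicate 2 or 3. The cause was not tested. No log2 fold change of the 6 genes moved by more than 0.1 when a library was left out. The scaling moved the sizes in shARNT further. With library size alone in place of TMM, VEGFB was at -0.34 and not -0.58 against shControl, and VEGFC at -0.50 and not -0.74. VEGFA was then at -3.64, ANGPTL4 at -3.19 and NRP1 at -1.26. Among the 40 named genes of the related lists, 17 of 1358 values changed their call and 0 reversed, in ANGPT1 and ANGPTL6 in shARNT and in ELAVL1, ZFP36, ZFP36L1 and PDGFA in shBMAL1. Without length, the VEGFA share differed by -34.4 percentage points in shARNT, -5.13 in shBMAL1 and -29.3 between the depletions. The NRP1 share differed by -25.3, -4.87 and -20.4 points over merged exon length, an alternative chosen after seeing the data, and by -24.6 and -4.62 without length in shARNT and shBMAL1.

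The replicate numbers did not pair the libraries. Same-numbered libraries had correlations of -0.041 to 0.075 between their deviations from the group means, 0 of 9 pairs were above 0.1, and 2 of 9 libraries correlated best with their own number. With the replicate block, 12684, 9833 and 12591 genes were called in the shARNT, the shBMAL1 and the direct comparison, and the calls of the 6 genes did not change, with NRP2 in shARNT at 0.09 (adjusted p = 0.0968). Depth limited KDR, FLT1 and PGF, which lay at or near the floor.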

Other observations

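Transcripts of genes whose proteins bind the VEGFA mRNA or adenine and uridine rich transcripts moved in both directions. Of 7 tested, 4 were higher, 2 lower and 1 not called in shARNT, and 1 was higher, 3 lower and 3 not called in shBMAL1. ZFP36, tristetraprolin, which promotes decay of such transcripts, was lower in shARNT, at 16.1 ± 1.27 CPM against 42.9 ± 3.96 in shControl (log2 fold change -1.41, adjusted p = 2.4e-12, quasi-likelihood F-test of edgeR after Benjamini-Hochberg adjustment, as below). ZFP36L1 was also lower there, at 124 ± 4.53 against 204 ± 11.8 CPM (adjusted p = 1.26e-11), and ZFP36L2 was higher, at 30.7 ± 0.671 against 17.7 ± 1.24 CPM (adjusted p = 9.94e-10). ELAVL1, the stabilising protein HuR, was higher in shARNT with a log2 fold change of 0.48 (adjusted p = 8.87e-09).

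Genes that act below the VEGF receptors were expressed although KDR and FLT1 were near the floor. Many of them also serve other receptors. Of 12 genes, 11 were tested, with 5 higher and 6 lower in shARNT and 6 higher, 2 lower and 3 not called in shBMAL1. PTPRJ, a receptor phosphatase, rose from 62.4 ± 1.16 CPM to 110 ± 2.66 in the shBMAL1 libraries and 198 ± 13.9 in those of shARNT (adjusted p = 2.47e-11 and 4.83e-17), and SRC rose to 296 ± 9.94 and 276 ± 5.74 from 158 ± 3.59 CPM (adjusted p = 1.18e-13 and 9.65e-14). The adaptor gene SHB had log2 fold changes of 0.44 in shBMAL1 and -1.41 in shARNT, so it moved in opposite directions (adjusted p = 2.17e-08 and 9.07e-17). GIPC1, which binds the intracellular end of NRP1, was higher in both (log2 fold changes 0.22 and 0.84, adjusted p = 9.52e-04 and 2.79e-12).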
